A study of Homo sapiens with 12 samples.

Results

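Wnt signalling in RD cells was described through 42 genes: 9 ligands, 8 Frizzled receptors, 2 LRP co-receptors, 7 secreted antagonists, 4 genes of the destruction complex and β-catenin, 4 TCF/LEF factors, and 8 targets and feedback regulators. The genes were chosen by name, with earlier results of these data known. All 42 were found by Ensembl identifier among the 61552 identifiers counted. RD is an established line of embryonal rhabdomyosarcoma, a childhood soft-tissue tumour with features of the muscle lineage, and it is of the fusion-negative kind, without a PAX-FOXO1 fusion gene. For 3 control libraries the cells received scrambled siRNA, and for 3 others they received siRNA against EHMT1. EHMT1, also called GLP, is a methyltransferase that places mono- and dimethylation on lysine 9 of histone H3, usually in a complex with EHMT2 (G9a). Both groups were grown in RPMI with serum, transfected with Lipofectamine RNAiMAX and collected at 48 h, so the transfection itself was common to all 6 libraries. The labels name 1 cell line and no siRNA sequence, and whether the replicates were separate cultures is not stated, so the spread behind each p-value may be that of technical repeats. The SOX8 siRNA experiment of the same series was not analysed here.

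Wnt ligands are secreted lipid-modified proteins that bind Frizzled receptors. In the canonical branch the ligand joins a Frizzled receptor to LRP5 or LRP6, the complex of AXIN1, APC and GSK3B stops marking β-catenin for destruction, and β-catenin enters the nucleus and acts with TCF/LEF factors. In the non-canonical branches, ligands such as WNT5A and WNT11 act through Frizzled receptors on cell polarity, movement and calcium. DKK1 blocks LRP5 and LRP6, the SFRP proteins and WIF1 bind the ligands themselves, and AXIN2, NKD1, NKD2, RNF43 and ZNRF3 are feedback inhibitors. In the embryo, Wnt signals from the neural tube and ectoderm help to start the muscle programme in the somite, and in the adult they act on satellite cells.

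Of the 42 genes, 36 had enough counts to be tested, and the test called 7 of them (edgeR's quasi-likelihood test, Benjamini-Hochberg adjustment over all 18646 genes tested, adjusted p under 0.05). FZD2, FZD6, DKK3 and GSK3B rose, and FZD5, DKK1 and MYC fell. The 7 were 19.4% of the tested genes, against 12.4% of all genes tested and 15.5% of the 13711 protein-coding genes tested. The 4 that rose stand against a background of 5.81%, and the 3 that fell against 6.54%. The changes were small, between -0.54 and 0.59 on the log2 scale over the 36 genes, and the median log2 change was 0.01, with 18 genes above 0 and 18 below. The median size of change, without its sign, was 0.15 on the log2 scale both for these genes and for all genes tested. No ligand, co-receptor or TCF/LEF factor passed the test, while 3 of 8 Frizzled receptors and 2 of the 4 testable antagonists did. In 13 of the 36 genes every library of one group lay above every library of the other, where 30.9% of all genes tested had the same property, and 12 of the 36 had an unadjusted p under 0.05, against 25.6% of all genes tested. These counts describe bulk RNA, in which fewer cells expressing a gene and less RNA per cell cannot be told apart.

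**Figure D1:**
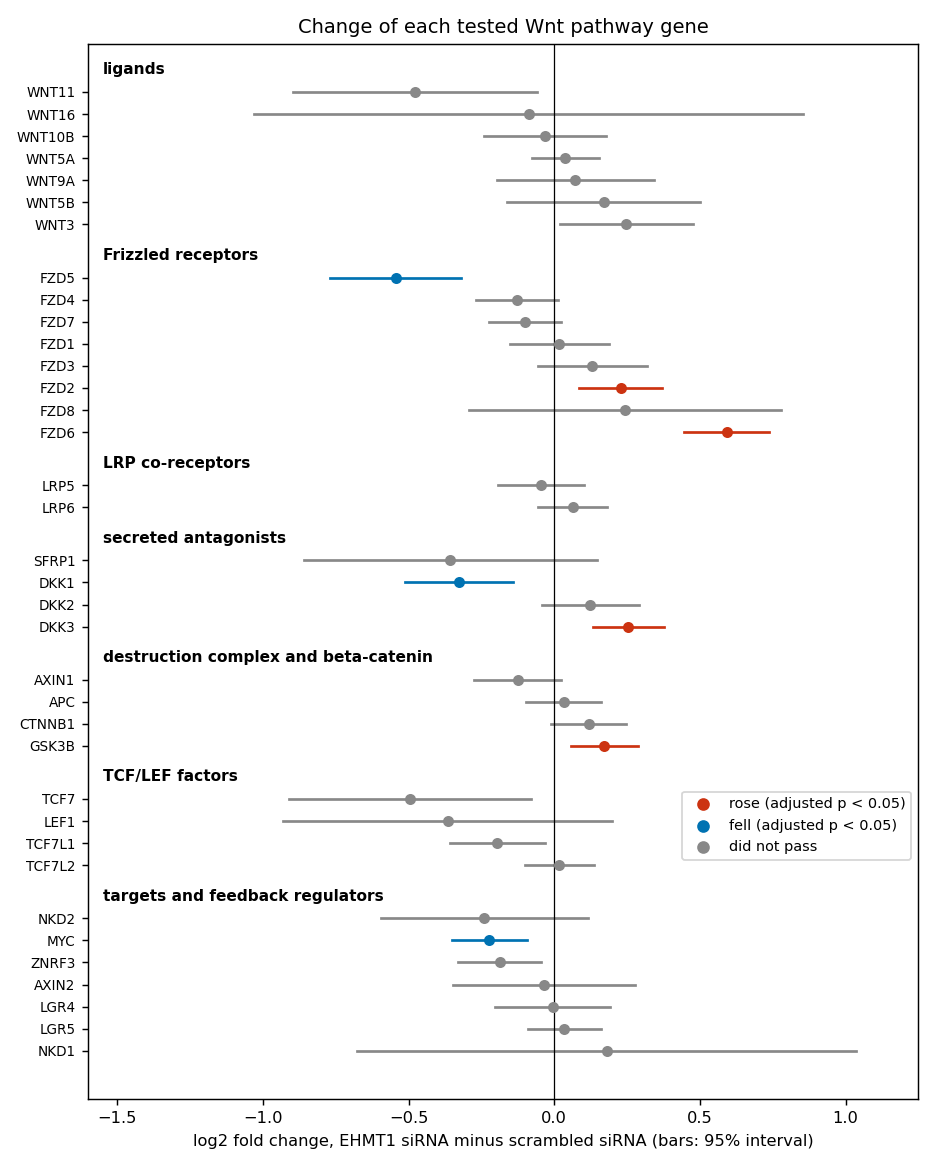
Log2 fold change (x axis, EHMT1 siRNA minus scrambled siRNA) of each of the 36 tested Wnt pathway genes, grouped by role; points are fitted values from 3 libraries per group and bars are 95% intervals. The 4 genes that rose and the 3 that fell are coloured, FZD6 lies farthest right at 0.59 and FZD5 farthest left at -0.54.

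EHMT1 itself stood at 131, 156 and 130.1 CPM (reads per gene relative to the TMM-corrected library size) in the scrambled libraries and at 53.2, 54.4 and 57.6 in the EHMT1 siRNA libraries, 39.6% of the control level. The fitted log2 change was -1.34 (SE 0.0715, adjusted p = 9.13e-09 by edgeR). EHMT2 was also lower, at 99.6 to 115 CPM against 90.1 to 93.4 CPM (log2 change -0.21, adjusted p = 0.0334 by edgeR), and it did not pass without EHMT1 siRNA replicate 1, 2 or 3 (adjusted p = 0.157, 0.113 and 0.139). Gene totals were 40639655 to 47258481 counts per library. Of 8 markers of rhabdomyosarcoma and skeletal muscle, 7 were counted in every library and MYF5 had no count in any, and their summed level was 1341 to 1539 CPM in the scrambled and 1506 to 1579 CPM in the EHMT1 siRNA libraries. PAX7 among them rose by 0.28 on the log2 scale (adjusted p = 0.0058 by edgeR; 0.0531 without EHMT1 siRNA replicate 3), and its part in the Wnt gene changes was not tested. The 12 markers of epithelial, endothelial and leukocyte cells were at or near 0, with no value above 0.501 CPM, and KRT14 and KRT19 had no count in any library. Scrambled replicate 2 stood apart: its share of counts from mitochondrial genes was 5.41%, against 4.29% to 4.83% in the other five libraries, and the first principal component placed it at -36.4, the other scrambled libraries at -16.0 and -9.16 and the EHMT1 siRNA libraries at 19.6 to 21.6. Without it, 4 Wnt genes rose and 5 fell, in a fit that called 18.5% of all genes tested. The same 7 genes passed in that fit, joined by FZD4 and FZD7. The scrambled libraries as a group were less alike than the EHMT1 siRNA libraries. On the second principal component scrambled replicates 1, 2 and 3 lay at 31.3, -26.6 and 12.7, and the EHMT1 siRNA libraries between -6.78 and -3.92. Between pairs of libraries the chi-square of counts per degree of freedom was 9.04 to 21.4 in the scrambled group. In the EHMT1 siRNA group it was 2.99 to 3.39. The main fit used a common spread for both groups.

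RefSeq promoter sequences (assembly GRCh38.p14, 250 bases before to 50 bases after the transcription start) were matched to 27 of the 42 genes by symbol, with 34 promoters in all. The table held promoters of 3 of the 7 called genes, and these are printed because the gene-level counts of these genes passed the test (start-site use was not measured): FZD5 at chr2:207769857-207770156 on the minus strand, DKK1 at chr10:52314031-52314330 on the plus strand, and GSK3B at chr3:120094398-120094697 on the minus strand. FZD2, FZD6, DKK3 and MYC had no entry. Each is written 5′ to 3′ along the gene, and capitals mark matches to CTTTGNN, the TCF/LEF core CTTTG and any 2 bases, on either strand (on the minus strand the match reads as NNCAAAG).
DKK1: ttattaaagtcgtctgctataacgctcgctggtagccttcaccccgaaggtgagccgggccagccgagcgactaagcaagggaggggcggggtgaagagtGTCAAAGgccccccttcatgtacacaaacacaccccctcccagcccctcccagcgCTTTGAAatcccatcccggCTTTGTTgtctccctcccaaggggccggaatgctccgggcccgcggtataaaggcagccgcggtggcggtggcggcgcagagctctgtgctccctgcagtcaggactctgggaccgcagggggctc
FZD5: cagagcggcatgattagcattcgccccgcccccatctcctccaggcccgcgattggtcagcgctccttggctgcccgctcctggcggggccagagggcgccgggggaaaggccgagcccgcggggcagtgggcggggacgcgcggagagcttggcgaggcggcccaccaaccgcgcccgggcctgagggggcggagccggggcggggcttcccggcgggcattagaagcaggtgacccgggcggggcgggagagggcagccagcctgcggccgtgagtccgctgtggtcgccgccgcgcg
GSK3B: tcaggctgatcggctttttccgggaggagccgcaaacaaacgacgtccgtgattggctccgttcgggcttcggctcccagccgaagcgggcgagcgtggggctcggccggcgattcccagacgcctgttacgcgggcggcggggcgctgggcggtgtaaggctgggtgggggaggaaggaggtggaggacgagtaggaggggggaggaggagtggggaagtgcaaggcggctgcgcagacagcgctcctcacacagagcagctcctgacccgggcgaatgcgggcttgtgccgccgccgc
The DKK1 promoter held 3 matches, at bases 101 to 107 on the minus strand and at bases 156 to 162 and 175 to 181 on the plus strand, counted from 1 at the 5′ end of the printed sequence. The FZD5 and GSK3B promoters held none in this window. Of all 35116 RefSeq promoters of the same length, 47.2% held at least 1 match and 4.36% held 3 or more, and 11 of the 34 promoters of the Wnt genes held at least 1 (32.4%). Among these 34, 5.88% held 3 or more, and a promoter of TCF7L2, which was not called, also held 3. Words ending in AA, AT, TA or TT after the core, which are closer to the known TCF/LEF motif, were in 13.8% of all promoters and in 4 of the 34. The DKK1 promoter held a pair of them, at its 2 plus-strand matches, and 2 or more were found in 1.58% of all promoters. The 34 promoters were richer in G and C than promoters at large, with a median of 65.7% against 58.7%, and FZD5 (77%), GSK3B (69.3%) and DKK1 (63.7%) were all above the general median.

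The Frizzled receptors, the seven-pass proteins that receive the ligand, were all 8 testable, and both the highest rise and the deepest fall of the Wnt genes were among them. FZD6 (ENSG00000164930), a receptor best known from planar cell polarity, measured 25.3, 22.6 and 25.7 CPM in the scrambled and 36.9, 37.9 and 36.0 CPM in the EHMT1 siRNA libraries. Every EHMT1 siRNA library was above every scrambled library. The mean was 24.5 ± 1.69 CPM (SD, n = 3) in the controls and 36.9 ± 0.954 CPM (SD, n = 3) after EHMT1 siRNA, a level of 151% and a log2 change of 0.59 (SE 0.0693, 95% interval 0.44 to 0.74, adjusted p = 3.93e-05 by edgeR). FZD5 (ENSG00000163251), a receptor of the same subfamily as FZD8, went the other way: 7.65, 8.14 and 7.91 CPM in the scrambled libraries and 5.02, 5.40 and 5.83 CPM in the EHMT1 siRNA libraries, again without overlap. Its mean fell from 7.90 ± 0.243 to 5.42 ± 0.410 CPM (mean ± SD, 3 libraries a group), to 68.6% of the control, with a log2 change of -0.54 (SE 0.107, 95% interval -0.77 to -0.32, adjusted p = 0.00295 by edgeR). FZD6 and FZD5 passed the test in each of the 14 alternative analyses.

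FZD2 (ENSG00000180340), of the subfamily that also holds FZD1 and FZD7, measured 101, 104 and 117 CPM with scrambled siRNA and 119, 123 and 136 CPM with EHMT1 siRNA. The highest control library lay just under the lowest EHMT1 siRNA library. Its mean rose from 107 ± 8.21 to 126 ± 8.78 CPM (mean ± SD, 3 libraries a group), with a log2 change of 0.23 (SE 0.0673, 95% interval 0.09 to 0.37, adjusted p = 0.0343 by edgeR). The call depended on which library was left out. Without scrambled replicate 1 the log2 change was 0.18 (adjusted p = 0.0991 by edgeR), and without EHMT1 siRNA replicates 1, 2 and 3 it was 0.26, 0.24 and 0.17 (adjusted p = 0.0570, 0.104 and 0.238). Without scrambled replicate 2 or 3 the gene passed (adjusted p = 0.0232 and 0.0159 by edgeR).

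The other five receptors were not called. FZD7, a receptor for WNT7A in satellite cells, was the most abundant Frizzled transcript, at 331, 318 and 356 CPM in the controls and 316, 301 and 320.1 CPM after EHMT1 siRNA. Its groups overlapped slightly, and its log2 change was -0.10 (95% interval -0.22 to 0.02, adjusted p = 0.303 by edgeR). FZD4, the receptor of Norrin, measured 66.2, 56.6 and 65.6 CPM against 56.8, 58.9 and 56.7 CPM, so that scrambled replicate 2 alone reached down to the EHMT1 siRNA level (log2 change -0.13, adjusted p = 0.239 by edgeR). Without scrambled replicate 2, FZD4 had a log2 change of -0.20 (adjusted p = 0.00614) and FZD7 one of -0.14 (adjusted p = 0.0419) by edgeR. FZD4 shares 18.9% of its exon bases with PRSS23 on the other strand, and reads there cannot be assigned in counts made without strand. The log2 change was 0.02 (95% interval -0.15 to 0.19) for FZD1, 0.13 (95% interval -0.06 to 0.32) for FZD3 and 0.24 (95% interval -0.29 to 0.78) for the scarce FZD8.

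Levels of different genes were set side by side per length, as CPM per kb of merged exons. On this scale FZD7 led with 86.8 ± 4.96 in the controls, FZD2 followed with 50.8 ± 3.89, and the other six receptors were far lower (SD, n = 3). The FZD2 model holds only 2112 bases in the annotation used, so its level per length leans on that model. FZD4 (8.51 ± 0.726) came before FZD6 (6.03 ± 0.415) in the controls, with no overlap between their libraries. After EHMT1 siRNA FZD6 stood at 9.09 ± 0.235 and FZD4 at 7.79 ± 0.170. Their order then depended on the length used: over exon bases not shared with another gene, a length chosen after seeing the data, FZD4 stood at 10.5 ± 0.896 in the controls and 9.61 ± 0.210 after EHMT1 siRNA, FZD6 at 6.24 ± 0.429 and 9.41 ± 0.243, and the libraries of the pair overlapped after EHMT1 siRNA. FZD1 stood at 3.84 ± 0.312 in the controls, FZD3 (1.30 ± 0.129) and FZD5 (1.18 ± 0.0362) did not differ beyond their spread, and FZD8 was last at 0.367 ± 0.0284. Of the summed Frizzled level per length, FZD7 made up 54.4% to 55.0% in the scrambled and 48.6% to 50.8% in the EHMT1 siRNA libraries. FZD2 made up 30.7% to 32.7% and then 34.9% to 37.6%, and FZD6 3.66% to 3.99% and then 5.19% to 5.85%. The sum itself overlapped between the groups, at 152 to 169 against 159.6 to 171 CPM per kb.

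**Figure D2:**
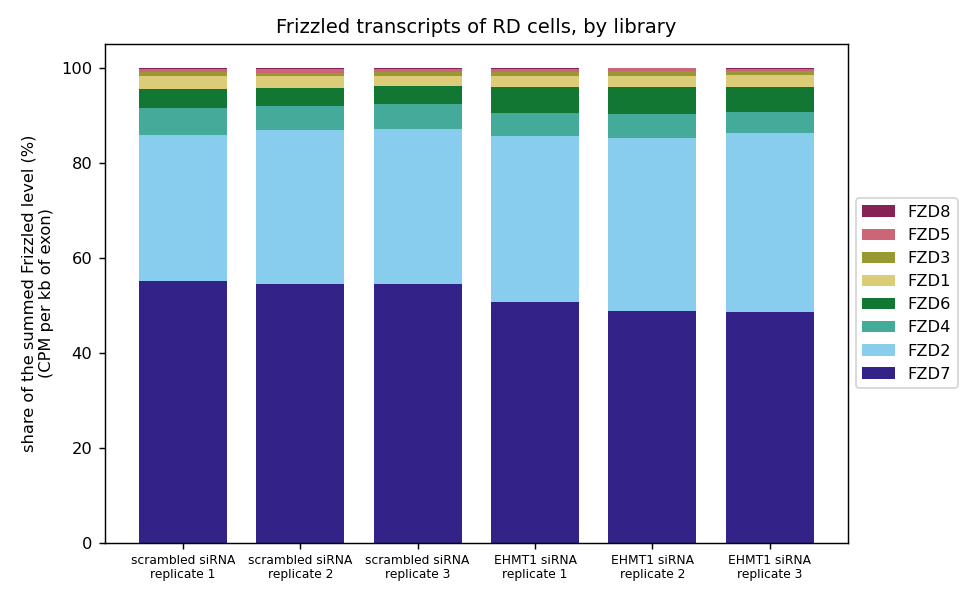
Share of the summed Frizzled level (y axis, percent of CPM per kb of exon) taken by each receptor in each of the 6 libraries (x axis). FZD7 takes the largest share in every library, from 54.4% or more in the scrambled libraries to 50.8% or less after EHMT1 siRNA, while the shares of FZD2 and FZD6 are higher in all 3 EHMT1 siRNA libraries.

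The co-receptors LRP5 and LRP6, which join Frizzled in the canonical branch, did not pass the test. LRP5 measured 156, 195 and 181 CPM in the controls and 167, 173 and 175 CPM after EHMT1 siRNA, with the second set lying inside the first. Its log2 change was -0.05 (95% interval -0.19 to 0.10, adjusted p = 0.737 by edgeR). LRP6 measured 86.9, 80.7 and 86.6 CPM against 87.1, 89.0 and 89.4 CPM, a log2 change of 0.06 (95% interval -0.06 to 0.18, adjusted p = 0.532 by edgeR). Its groups did not overlap, but the gap between the nearest libraries was smaller than the spread within either group. Per length LRP5 (28.8 ± 3.18 CPM per kb, SD, n = 3) was above LRP6 (8.19 ± 0.338) in the controls.

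Among the secreted antagonists, the most abundant, DKK1, fell and DKK3 rose. DKK1 (ENSG00000107984) blocks LRP5 and LRP6, and is itself a target of β-catenin in several cell types. It measured 222, 161 and 185 CPM in the scrambled and 159.5, 148 and 146 CPM in the EHMT1 siRNA libraries. Scrambled replicate 1 was far above the rest, and scrambled replicate 2 lay only just above the highest EHMT1 siRNA library. The mean fell from 189 ± 30.5 to 151 ± 7.38 CPM (mean ± SD, 3 libraries a group), to 79.8% of the control, with a log2 change of -0.33 (SE 0.0872, 95% interval -0.51 to -0.14, adjusted p = 0.0214 by edgeR). Without scrambled replicate 1 the log2 change was -0.20 and the adjusted p 0.0648 by edgeR. Without EHMT1 siRNA replicate 2 and 3 the log2 change was -0.31 and -0.30, and the adjusted p 0.103 and 0.102 by edgeR. The call was thus lost without each of these libraries. The fits without EHMT1 siRNA replicate 2 and 3 called only 4.9% and 5.28% of all genes tested, against 12.4% in the main fit. DKK1 shares 9.61% of its exon bases with PRKG1-AS1 on the other strand. DKK3 (ENSG00000050165), a divergent family member that does not act on LRP5 and LRP6 in the manner of DKK1, measured 60.1, 62.3 and 62.1 CPM with scrambled siRNA and 72.7, 70.5 and 76.8 CPM with EHMT1 siRNA. Its groups were well apart. The mean rose from 61.5 ± 1.20 to 73.3 ± 3.18 CPM (mean ± SD, 3 libraries a group), with a log2 change of 0.25 (SE 0.0580, 95% interval 0.13 to 0.38, adjusted p = 0.00848 by edgeR), and the call was lost only without EHMT1 siRNA replicate 3 (adjusted p = 0.0869 by edgeR) of the 14 alternatives. Of the strand-assigned DKK3 counts 75.8% came from the strand that carries 87.1% to 89.0% of counts over all genes, so part of its counts may belong to a transcript of the other strand.

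DKK2, which can inhibit or activate depending on the receptors present, measured 13.5, 14.0 and 13.0 CPM against 14.4, 14.5 and 15.1 CPM. The groups did not overlap, but the log2 change of 0.12 (95% interval -0.04 to 0.29) did not pass the test (adjusted p = 0.357 by edgeR). SFRP1, a soluble protein that binds Wnt ligands, was low, at 1.80 ± 0.329 against 1.41 ± 0.441 CPM (mean ± SD, 3 libraries a group), and its log2 change was -0.36 with a wide 95% interval of -0.86 to 0.15. SFRP4 gave 11, 7 and 5 counts in the scrambled libraries and 3 counts in each EHMT1 siRNA library, too few for the test. WIF1 gave 1 count, in scrambled replicate 3, and SFRP2 gave none in any library. A library with a count of 0 allows a level of up to 0.0641 to 0.0751 CPM, the worth of 3 counts, and this limit covers counting error only. Per length DKK1 made up 82.0% to 86.6% of the summed antagonist level in the controls and 77.8% to 80.1% after EHMT1 siRNA, and DKK3 made up 10.2% to 13.8% and then 15.9% to 17.8%. Neither share overlapped between the groups.

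**Figure D3:**
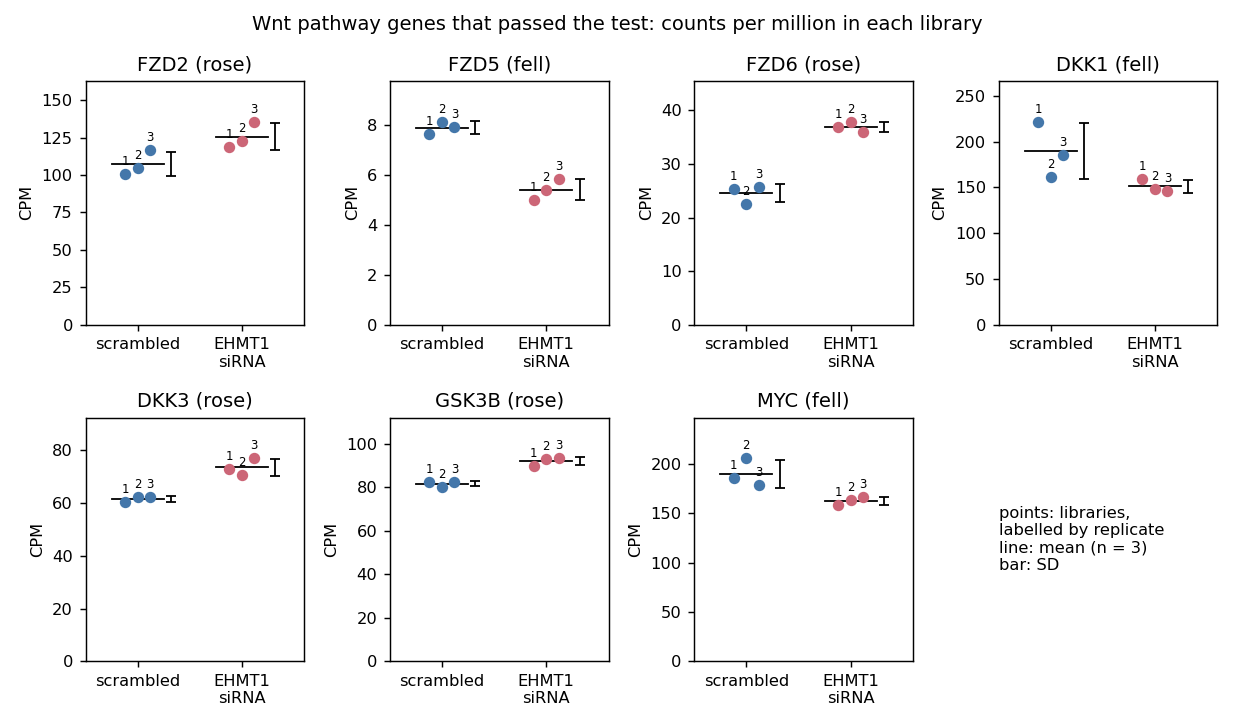
CPM (y axis, from 0) in each library of the 7 Wnt pathway genes that passed the test, one panel per gene; points are the 3 libraries of each group and horizontal lines their means, with the SD as a bar beside them. The groups do not overlap in any of the 7 panels, and they lie closest in FZD2, DKK1 and MYC.

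Of the destruction complex and β-catenin, GSK3B rose. GSK3B (ENSG00000082701), the kinase that phosphorylates β-catenin and also acts in glycogen and insulin signalling, measured 82.5, 80.3 and 82.5 CPM in the controls and 89.8, 93.3 and 93.4 CPM after EHMT1 siRNA. The groups were separate and tight. The mean rose from 81.8 ± 1.27 to 92.2 ± 2.01 CPM (mean ± SD, 3 libraries a group), to 113% of the control, and the log2 change was 0.17 (SE 0.0548, 95% interval 0.06 to 0.29). Its adjusted p of 0.0488 (edgeR) was close to the threshold, and it was 0.0795 when no filter on low counts was used and between 0.0543 and 0.214 without scrambled replicate 1 or 3 or any of the EHMT1 siRNA replicates. CTNNB1, which encodes β-catenin, measured 367, 318 and 352 CPM against 383, 370.0 and 372 CPM. The groups did not overlap, with scrambled replicate 2 the lowest, and the log2 change of 0.12 (95% interval -0.01 to 0.25) did not pass the test (adjusted p = 0.237 by edgeR). The scaffold genes AXIN1 (log2 change -0.13, 95% interval -0.27 to 0.02) and APC (0.03, 95% interval -0.10 to 0.16) were not called. CTNNB1 was the highest of these 4 genes per length, at 29.0 ± 2.10 CPM per kb in the controls (SD, n = 3), above GSK3B (10.0 ± 0.155), AXIN1 (6.86 ± 0.698) and APC (4.23 ± 0.0554).

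None of the 7 testable ligands passed the test. WNT5A, a largely non-canonical ligand, dominated them, with 133, 127 and 134 CPM in the scrambled and 136, 134 and 134 CPM in the EHMT1 siRNA libraries. The values lay close together in both groups, and the log2 change was 0.04 with a narrow 95% interval of -0.08 to 0.15 (adjusted p = 0.717 by edgeR). Per length WNT5A stood at 17.8 ± 0.479 CPM per kb in the controls (SD, n = 3). It made up 63.1% to 66.5% of the summed level of the 9 listed ligands over the 6 libraries. WNT10B, a canonical ligand that favours muscle over fat fate in precursor cells, came next with 4.44 ± 0.0560 CPM per kb, and its log2 change was -0.03 (95% interval -0.24 to 0.18). WNT9A (2.20 ± 0.491) and WNT3 (1.69 ± 0.141), both canonical ligands, followed, and their libraries overlapped. The ligand WNT2B is among the further genes described below and is left out of this sum and order. It stood at 2.19 ± 0.130 CPM per kb in the controls, close to WNT9A, and it fell (log2 change -0.43, adjusted p = 0.000831 by edgeR).

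WNT11, a non-canonical ligand of cell movements in the embryo, had the smallest p of the ligands. It measured 2.03, 1.93 and 2.47 CPM in the controls and 1.87, 1.40 and 1.34 CPM after EHMT1 siRNA. The groups did not overlap, but the log2 change of -0.48 (SE 0.198, 95% interval -0.90 to -0.06) had an adjusted p of 0.132 by edgeR. In the deposited counts of the second strand alone it passed, with a log2 change of -0.64 (adjusted p = 0.0288 by edgeR). WNT11 shares 8.5% of its exon bases with AP000785.1 on the other strand. Of its strand-assigned counts 79.9% came from the second strand, which carries 87.1% to 89.0% over all genes. WNT3 measured 7.97, 7.26 and 6.76 CPM against 8.47, 7.95 and 9.72 CPM, with overlap at 1 library of each group (log2 change 0.25, adjusted p = 0.156 by edgeR). WNT9A (log2 change 0.07, 95% interval -0.20 to 0.34) and WNT5B (0.17, 95% interval -0.16 to 0.50) were not called. WNT16 was near the limit of detection at 0.214 to 0.306 CPM, and only 17.5% of its strand-assigned counts came from the second strand, so most of its reads may stem from a transcript of the other strand. WNT4 had between 0 and 0.118 CPM and WNT2 no count in any library, which left both untested.

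**Figure D4:**
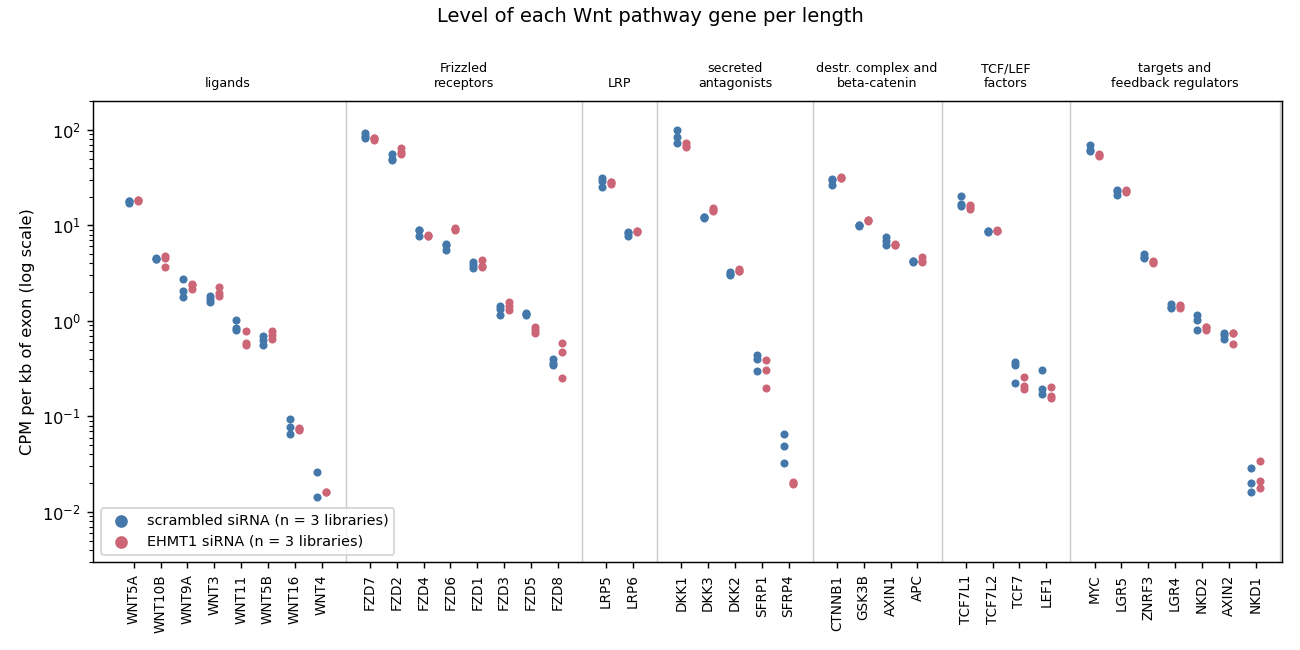
Level of each Wnt pathway gene (y axis, CPM per kb of exon, log scale) by role, with the 3 libraries of each group as points; libraries with no count, and genes with no count in a whole group, are not drawn. FZD7, DKK1, MYC and FZD2 are the highest, above 45 CPM per kb in every library, and most ligands lie more than 1 order of magnitude below them.

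The TCF/LEF factors, which carry β-catenin's transcriptional activity, gave no call, with a median log2 change of -0.28 over the 4 genes. TCF7L1, a member that mostly acts as a repressor, measured 71.0, 90.1 and 74.2 CPM in the scrambled and 65.8, 71.2 and 68.4 CPM in the EHMT1 siRNA libraries. Scrambled replicate 2 was the highest, and the groups overlapped at their edge. The log2 change was -0.20 (SE 0.0768, 95% interval -0.36 to -0.03, adjusted p = 0.111 by edgeR). With the replicate number as a block the log2 change was -0.19 and TCF7L1 passed (adjusted p = 0.0301 by edgeR). Without scrambled replicate 1 it also passed (log2 change -0.27, adjusted p = 0.0334 by edgeR), while without scrambled replicate 2 the log2 change was -0.09 (adjusted p = 0.259 by edgeR). TCF7 measured 2.22, 3.70 and 3.49 CPM against 2.11, 1.95 and 2.59 CPM, with scrambled replicate 1 lying among the EHMT1 siRNA libraries. Its log2 change was -0.50 (95% interval -0.91 to -0.08, adjusted p = 0.115 by edgeR), and without scrambled replicate 1 it was -0.70 (adjusted p = 0.0175 by edgeR). TCF7L2 differed little, with a log2 change of 0.02 (95% interval -0.10 to 0.14), and LEF1 was scarce, at 1.20 ± 0.391 against 0.931 ± 0.146 CPM (mean ± SD, 3 libraries a group). Per length TCF7L1 (17.8 ± 2.32 CPM per kb) and TCF7L2 (8.70 ± 0.0950) exceeded TCF7 (0.312 ± 0.0795) and LEF1 (0.224 ± 0.0730) in the controls, and the last pair did not differ beyond their spread.

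Of the targets and feedback regulators, MYC fell and the other six testable genes were not called. MYC (ENSG00000136997), a transcription factor of growth and proliferation that β-catenin activates in colon cells and that many other signals also control, measured 185, 205 and 179 CPM in the scrambled libraries. In the EHMT1 siRNA libraries it measured 158, 163 and 167 CPM, each below every control. The mean fell from 189.8 ± 14.0 to 163 ± 4.30 CPM (mean ± SD, 3 libraries a group), to 85.6% of the control, with a log2 change of -0.22 (SE 0.0612, 95% interval -0.35 to -0.09, adjusted p = 0.0234 by edgeR). Without EHMT1 siRNA replicate 1, 2 or 3 the log2 change was -0.21, -0.23 and -0.24, and the adjusted p was 0.139, 0.112 and 0.0806 by edgeR. These fits called 6.11%, 4.9% and 5.28% of all genes tested, against 12.4% in the main fit. AXIN2, the most general transcriptional target of the canonical branch, measured 3.89, 3.38 and 3.72 CPM against 2.96, 3.90 and 3.88 CPM. The groups overlapped, and the log2 change was -0.04 with a 95% interval of -0.35 to 0.28 (adjusted p = 0.913 by edgeR). AXIN2 shares 25.2% of its exon bases with AC004805.1 on the same strand.

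ZNRF3, a membrane ubiquitin ligase that removes Frizzled receptors from the cell surface, measured 32.6, 35.0 and 31.3 CPM against 29.7, 29.1 and 28.1 CPM. The groups did not overlap, and the log2 change was -0.19 (SE 0.0673, 95% interval -0.33 to -0.05), but its adjusted p of 0.0787 (edgeR) missed the threshold, as it did in each of the 14 alternatives. LGR5, a receptor for R-spondins and a stem cell marker in the gut, was abundant at 109 to 122 CPM in the controls and 117 to 122 CPM after EHMT1 siRNA, with a log2 change of 0.03 (95% interval -0.09 to 0.16). Its relative LGR4 had a log2 change of -0.01 (95% interval -0.20 to 0.19). The feedback inhibitors NKD2 (-0.24, 95% interval -0.60 to 0.12) and NKD1 (0.18, 95% interval -0.68 to 1.04) were also not called on the log2 scale, and NKD1 was counted at under 1 CPM. RNF43, the close relative of ZNRF3, had a count of 0 in all 6 libraries. Since 73.9% of its exon bases are shared with AC004687.2, SUPT4H1 and TSPOAP1-AS1, and reads in shared bases are assigned to no gene, this count bears only on the rest of its exons. Per length MYC (63.2 ± 4.67 CPM per kb in the controls, SD, n = 3) and LGR5 (22.3 ± 1.40) led these genes, and AXIN2 (0.701 ± 0.0497) was low.

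A further 84 genes of Wnt secretion, reception, transduction, polarity and target response were listed, also with earlier results of these data known. Of the 84, 60 could be tested. Of the 60, 6 rose and 5 fell, with a median log2 change of -0.01. These were 18.3%, against 12.4% of all genes tested and 15.5% of the protein-coding genes tested. CCND1, the G1 cyclin and a textbook Wnt target, measured 249, 261 and 247 CPM in the controls and 311, 305 and 319.7 CPM after EHMT1 siRNA. It rose by 0.31 on the log2 scale (adjusted p = 0.00139 by edgeR), opposite in direction to MYC. BIRC5, the apoptosis inhibitor survivin and also a listed target, measured 136, 138 and 134 CPM against 114, 104 and 112 CPM, a log2 change of -0.31 (adjusted p = 0.00204 by edgeR). The canonical ligand WNT2B measured 28.9, 27.8 and 25.7 CPM against 20.7, 20.0 and 20.5 CPM, a log2 change of -0.43 (adjusted p = 0.000831 by edgeR). Of its strand-assigned counts 72.9% came from the second strand, and 21.2% of its exon bases are shared with ST7L on the other strand. Only 3 of the 14 further ligands and R-spondins could be tested, and WNT2B was the one called. KREMEN2, a receptor through which DKK1 removes LRP6, fell from 3.33 ± 0.252 to 1.93 ± 0.212 CPM (mean ± SD, 3 libraries a group), a log2 change of -0.79 (adjusted p = 0.00406 by edgeR). For KREMEN2 69.2% of strand-assigned counts came from the second strand, and 13.8% of its exon bases are shared with PKMYT1 on the other strand. CCND1, BIRC5, WNT2B and KREMEN2 passed in each of the 14 alternatives.

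SFRP5, a secreted antagonist, rose from a low level of 0.695 ± 0.192 to 1.42 ± 0.156 CPM (mean ± SD, 3 libraries a group), with a log2 change of 1.04 (SE 0.258, adjusted p = 0.0139 by edgeR). Its call was lost in the counts of the second strand and without scrambled replicate 1 or EHMT1 siRNA replicate 2 or 3, with an adjusted p of at most 0.0806 by edgeR. The polarity cadherin CELSR3 rose (log2 change 0.36, adjusted p = 0.0054), and the Groucho co-repressor TLE3 fell (-0.31, adjusted p = 0.00584), both by edgeR and both lost without EHMT1 siRNA replicate 2. The casein kinase gene CSNK1G2 fell (-0.25, adjusted p = 0.0198 by edgeR) and no longer passed when any single EHMT1 siRNA library was left out. The remaining 3 calls, named after their values were seen, were rises of the kinase gene CSNK1G1 (0.21, adjusted p = 0.0301), the tankyrase gene TNKS2 (0.20, adjusted p = 0.0394) and the polarity gene PRICKLE1 (0.78, adjusted p = 0.0368), on the log2 scale and by edgeR. None of them passed without EHMT1 siRNA replicate 1, 2 or 3 (adjusted p between 0.0597 and 0.182), and CSNK1G1, PRICKLE1 and TNKS2 were also lost without scrambled replicate 1, 2 and 3 respectively (adjusted p = 0.0526, 0.0708 and 0.0570 by edgeR). PRICKLE1 was low, at 1.11 ± 0.311 against 1.92 ± 0.308 CPM (mean ± SD, 3 libraries a group). It shares 23.6% of its exon bases with AC079601.1 and PPHLN1 on the other strand. CSNK1G1 shares 16.3% with AC087632.1 on the same strand.

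**Figure D5:**
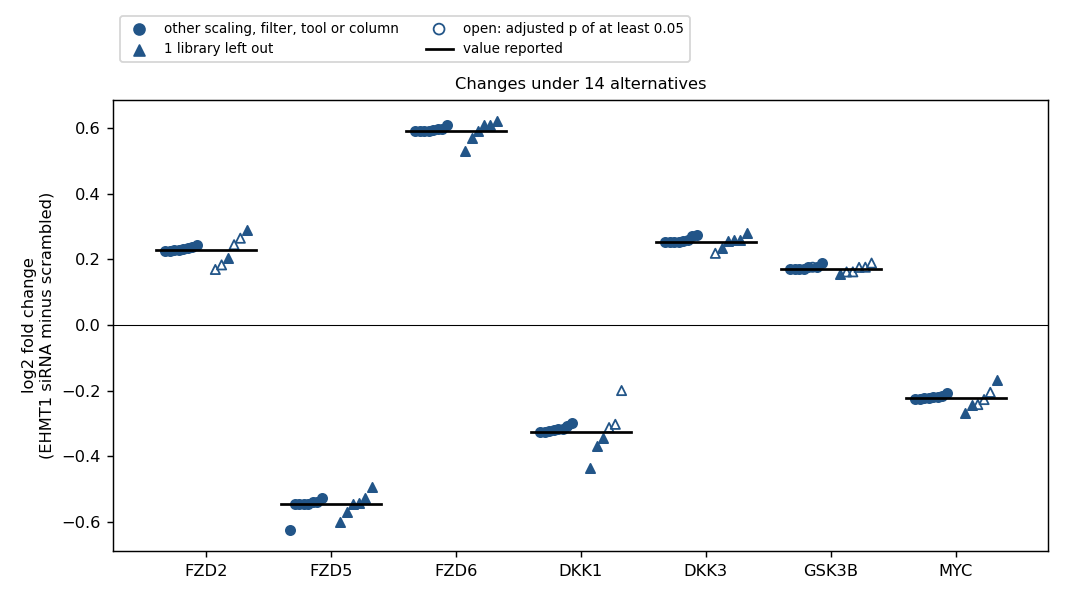
Log2 fold change (y axis, EHMT1 siRNA minus scrambled siRNA) of the 7 called Wnt pathway genes (x axis) in the main analysis and under 14 alternatives; circles change the scaling, filter, tool, block or column, triangles leave out 1 library, and open marks did not pass the test. No mark crosses 0, every alternative passes for FZD6 and FZD5, and GSK3B has the most alternatives, 6, that do not pass.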

How the data were processed

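RNA of 6 RD samples was poly-A selected and made into libraries with the NEBNext Ultra RNA kit, per the labels' protocols. The submitters' processing notes list the genome build hg19 and, with no role for each, DESeq2, HTSeq 0.6.1, STAR 2.5, bcl2fastq and CASAVA. The deposited files hold whole-number read counts per gene in the layout of STAR gene counts, 1 column without strand and 1 per strand. The authors' normalization is not part of these counts. The unstranded column was used, although 87.1% to 89.0% of the strand-assigned counts fell on the second strand, and reads assigned to no gene, 20.0% to 21.2% of each library, were left out. The identifiers are newer than hg19, so the only coordinates given are those of the RefSeq promoters, on GRCh38.p14. Exon lengths, overlaps and gene types came from GENCODE 29, which held 58352 of the 61552 identifiers. Symbols came from a separate list of gene names, and 61399 of 61552 identifiers had a symbol.

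Genes passing filterByExpr (minimum count 10) were fitted with edgeR 4.0.16 in R 4.3.3 (TMM, robust quasi-likelihood, group only), and p-values were adjusted by Benjamini-Hochberg over all genes tested. CPM are TMM-scaled, and 95% intervals come from the fit. The script was tested on simulated data. The labels share replicate numbers between the groups, and deviations of same-numbered libraries correlated at 0.413, 0.133 and 0.121. Scrambled replicate 2 and EHMT1 siRNA replicate 3, of unlike number, reached 0.199, above 0.133 and 0.121. These values cannot settle whether the numbers pair the samples. The main fit is unpaired, and the fit with a replicate block is an alternative. Other alternatives were RLE and upper quartile scaling, no filter, a filter of 1 CPM in 3 libraries, DESeq2 1.42.0, limma-voom (limma 3.58.1), the second strand column, each library left out and a threshold of 0.01.

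The genes and lists were chosen with earlier results of these data known. By rule, library values are given for genes past the threshold. In each role they are also given for the gene with the smallest p and the one with the highest level per length. Library values of FZD4, DKK2, WNT3, TCF7, AXIN2 and ZNRF3 and counts of SFRP4 are given outside this rule. Other named genes complete the list. Of the 84 further genes, up to 8 with the smallest adjusted p were named by rule, and the remaining calls were named after their values were seen.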

Additional observations from a re-analysis of the deposited data

How the results depend on the processing

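Over the 14 refits, the 36 tested genes gave 499 comparisons with the main analysis, and no called gene changed direction. FZD6 and FZD5 stayed past the threshold throughout. At a threshold of 0.01, 492 genes rose and 525 fell over all genes, 2 Wnt genes rose and 1 fell, and 2 of the further pathway genes rose and 4 fell. When each library was left out in turn, the genes that rose numbered 452 to 1625 and those that fell 484 to 1923, the Wnt genes 1 to 4 and 1 to 5, and the further pathway genes 1 to 10 and 3 to 7. The highest counts over all genes came without scrambled replicate 2 and the lowest without EHMT1 siRNA replicate 2. The fits without EHMT1 siRNA replicate 1, 2 and 3 called 6.11%, 4.9% and 5.28% of all genes tested, against 12.4% in the main fit. Calls were thus lost there over all genes and not only in Wnt genes. With the replicate block, 1474 genes rose and 1632 fell, 16.7% of those tested. In that fit 4 Wnt genes rose and 4 fell, and 9 and 6 of the further pathway genes; TCF7L1 was the one change of call among the Wnt genes. Scaling moved the median log2 change of all genes by at most 0.0173. Depth limits WNT4, WNT16, SFRP4, WIF1 and NKD1, whose levels lie near the worth of 3 counts or whose intervals are wide.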
